A study of Mus musculus with 2 samples.

Results

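The genes described here are 51 genes of mitosis and cell division, chosen by symbol from the cell division machinery and kept where both libraries together held at least 50 UMIs (unique molecular identifiers, each counting 1 captured RNA molecule). All 51 passed, from Ttk with 790 UMIs to Ube2s with 45510, among 32285 gene models of which 14172 reached that minimum. They were measured in CD45-selected cells from mouse tumours, by droplet 3' sequencing, in 1 library titled CEP, for cepharanthine, a bisbenzylisoquinoline alkaloid named in the series title, and 1 library whose title reads "Vehide", taken here as Vehicle. The series concerns cell death and PARP1 expression in tumours under that compound. The design states 5 biological replicates per group, cells cannot be traced to an animal from the labels, and the labels do not name the tumour model, strain, age, dose or time. Each group was therefore 1 sample, no test between groups was possible, and intervals below are 95% intervals of counting error only.

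Cell division is driven by the kinase CDK1 with its A and B type cyclins, which starts mitosis and then has to be switched off. The spindle checkpoint holds the cell until every kinetochore has caught a microtubule, and the anaphase-promoting complex (APC/C), a ubiquitin ligase, then destroys securin and the cyclins so that chromosomes part and the cell is cleaved. RNAs of this machinery accumulate together in late cell cycle and are low in resting cells, so in a tumour they mark the cells that are cycling. In tumours both malignant cells and some infiltrating macrophages and activated T cells cycle, while mature neutrophils do not divide.

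The CEP library held 9621 barcodes and 88721774 UMIs, the Vehicle library 9989 barcodes and 81208647 UMIs, and 9544 and 9932 barcodes were kept after filters. Cells were grouped by gates on raw UMIs of a few marker genes: macrophage (C1qa, C1qb and C1qc, 4706 CEP and 5160 Vehicle cells), T cell (Cd3d, Cd3e and Cd3g, 172 and 271), neutrophil (Csf3r and Cxcr2, 1687 and 2143), dendritic (Flt3, 92 and 98) and epithelial (Krt8 and Krt18, 834 and 133). A gate is not a cell type: it misses shallow cells, admits cells that carry RNA of another class, and left 2107 CEP and 2168 Vehicle cells in no gate. Independent markers were present in each gate, the median marker being detected in 86.3% and 87.8% of macrophage, 86.4% and 85.0% of neutrophil, 87.5% and 87.2% of epithelial, 51.2% and 43.2% of T and 40.2% and 37.8% of dendritic cells. The design gives a purity over 95% after CD45 selection. The epithelial gate held 834 of 9544 kept barcodes in CEP and 133 of 9932 in Vehicle. The CEP count is larger than that purity would leave if all these cells lacked CD45, which was not tested. The number of epithelial cells is not read as a change. The libraries shared 136 barcode sequences.

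The members were highest in the epithelial gate and lowest in the neutrophil gate. Their summed level was 3763 CPM (the usual scaling of UMIs by all UMIs of the gate; counting interval 3738 to 3788) in CEP and 3517 CPM (3457 to 3577) in Vehicle epithelial cells. In the macrophage gate it was 1993 CPM in CEP and 2084 CPM in Vehicle, and in the dendritic gate 2110 and 1845 CPM. T cells had 2880 CPM in CEP and 1887 CPM in Vehicle, and neutrophils 1067 and 685 CPM. Macrophage and dendritic gates were close to each other with all cells counted. Without cells with at least 10 Krt8 and Krt18 UMIs, they were at 1915 and 1930 CPM in CEP. In Vehicle they were then apart, at 2077 CPM in macrophages and 1471 CPM in dendritic cells. With all cells, the epithelial gate stood above every other gate and the neutrophil gate below every other gate in both libraries.

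**Figure D1:**
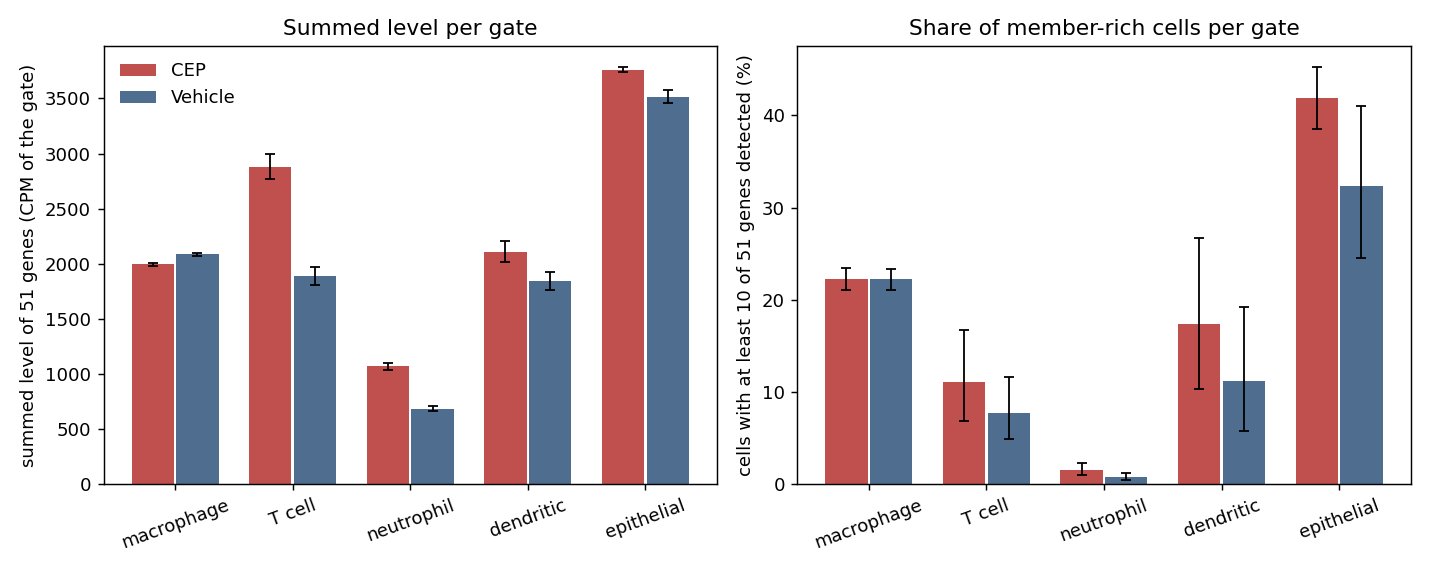
Summed level of the 51 genes in CPM (left) and share of cells with at least 10 of the 51 detected (right) in each gate, with CEP and Vehicle bars and 95% counting intervals. The macrophage bars are nearly level between libraries (1993 and 2084 CPM, 22.2% and 22.2% of cells), and the epithelial bars are the tallest.

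The RNA of these genes was concentrated in a minority of cells, called member-rich here when at least 10 of the 51 were detected. Such cells were 22.2% of the macrophage gate in CEP (1046 of 4706, exact binomial interval 21.0% to 23.4%) and 22.2% in Vehicle (1146 of 5160, 21.1% to 23.4%). They were 41.8% (38.5% to 45.3%) and 32.3% (24.5% to 41.0%) of the epithelial gate, 11.05% and 7.75% of the T cell gate, and 1.54% and 0.700% of the neutrophil gate. Median depth was 10017 and 11228.5 UMIs in macrophages, 26412.5 and 27614 in epithelial cells and 1776 and 1864 in neutrophils, which moves these shares between gates. With every cell thinned to 1000 UMIs, a cell with at least 3 members was found in 16.8% and 17.1% of macrophages, 27.8% and 16.5% of epithelial cells, 14.4% and 9.34% of T cells and 1.45% and 0.986% of neutrophils, leaving out 31 and 28 macrophages and 237 and 216 neutrophils that were shallower. Near the limit, 354 CEP and 399 Vehicle macrophages had 8 to 12 members, and 452 and 538 had 30 or more.

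For Mki67, Top2a and Ube2c, detection stood far above the level in mature neutrophils, a class that should lack them. These shares are at full depth, and the neutrophils were shallower than the cells of the other gates named here, which by itself lowers detection. Mki67, the proliferation antigen of the chromosome surface, was detected in 26.4% of CEP and 28.7% of Vehicle macrophages and 33.3% and 26.3% of epithelial cells. In Cxcr2-positive neutrophils without keratin, at a median of 1946 and 2009 UMIs, it was detected in 1.29% and 1.57%. Top2a, the topoisomerase that untangles sister chromatids, was detected in 20.8% and 20.2% of macrophages, 42.6% and 36.8% of epithelial cells and 1.09% and 1.42% of those neutrophils. Ube2c, the E2 enzyme that primes ubiquitin chains for the APC/C, gave 22.1% and 22.7% in macrophages and 1.09% and 1.86% in those neutrophils.

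How tightly each member kept to these cells was measured, for each gene, by the share of its UMIs in cells with at least 10 of the other 50 members. In macrophages the median member had 93.2% (CEP) and 93.6% (Vehicle) of its UMIs in such cells, which held 33.3% and 32.0% of all UMIs of the gate. Cenpf, a kinetochore protein of late G2 and mitosis, had 97.4% in both libraries, and its level was 108 and 119 CPM in those cells against 1.42 and 1.502 CPM in the rest. Birc5 (survivin, of the chromosomal passenger complex) had 93.6% and 94.4%, and Top2a 93.8% and 95.0%. Bub3, a checkpoint protein, had 49.6% and 51.3%, and Ube2s, the E2 enzyme that extends APC/C ubiquitin chains, had 56.2% and 56.4%. Ube2s was detected in 75.7% and 76.2% of macrophages, and the gene overlaps the ribosomal protein gene Rpl28 on the opposite strand by 521 bases.

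Genes outside the 51 also differed between member-rich cells and the rest. All 32 genes of a list of DNA replication and S phase genes were higher in member-rich macrophages than in macrophages with fewer than 3 members, in both libraries. Their summed level was 1972 against 351 CPM in CEP and 1974 against 353 CPM in Vehicle. Rrm2, the small subunit of ribonucleotide reductase, was at 82.3 against 1.26 CPM in CEP and 88.1 against 1.08 CPM in Vehicle. Thymidine kinase Tk1 was at 124 against 2.89 CPM and 126 against 2.57 CPM. Of 16 transcription regulators of the cell cycle, 12 were higher in member-rich macrophages in each library with intervals above 0. The share of all genes that were higher there is not given here, so both counts are a description. Other RNA differed as well. The 5 macrophage markers summed to 11005 CPM in member-rich macrophages against 18953 CPM in CEP, and to 12198 against 18926 CPM in Vehicle. Foxm1, an activator of late cell cycle genes, was at 19.6 against 0.632 CPM in CEP and 20.2 against 0.249 CPM in Vehicle. Mybl2, which joins the same activating complex, was at 26.5 against 0.451 CPM and 24.7 against 0.664 CPM. Lin54, the DNA-binding subunit of the complexes that act on these promoters, was at 31.4 against 36.1 CPM and 31.8 against 29.6 CPM, so it did not separate the cells.

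Inhibitors of cyclin-dependent kinases did not move as a block. Cdkn1a (p21) was lower in member-rich macrophages, at 1017 against 1450 CPM in CEP and 1085 against 1494 CPM in Vehicle. Cdkn2c (p18) was higher there, at 43.9 against 3.43 CPM in CEP and 40.0 against 2.66 CPM in Vehicle. Cdkn2d (p19) was higher too, at 63.1 against 18.5 CPM and 78.4 against 23.2 CPM. Member-rich macrophages were deeper, with a median of 15464 and 16837 UMIs against 9043.5 and 10203 in the other cells of the gate. CPM divides by depth, and the limit on detected members does not.

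Members that rise and fall together are known to share 2 promoter elements, the cell cycle genes homology region (CHR), bound by the complex that holds Lin54, and the CCAAT box, bound by NF-Y. Promoter windows of 300 bases, from 250 before to 50 after each start site, were taken from RefSeq (GRCm38.p6) for 43 of the 51 members. Aurkb, Ccna2, Cdca2, Incenp, Kif20a, Smc4, Stmn1 and Tpx2 are not among them. A CHR match (TTTGAA on either strand, or TTCGAA) stood in 36 of 43 member windows (83.7%), against 19.4% of the windows of all 27025 genes in the table. Within 50 bases of the start site the shares were 31 of 43 (72.1%) and 5.29%. A CCAAT match (CCAAT on either strand) stood in 33 of 43 (76.7%) against 37.9% of all genes, and both motifs together in 31 of 43 (72.1%) against 7.70%. In 25 S phase genes with a window the CHR share was 16.0% and the CCAAT share 60.0%. These matches are letters in a window and not binding sites, and the 51 genes are known cell cycle genes, so that the share is a property of the list. Member windows with no CHR match were those of Birc5, Ccnb1, Cenpe, Mad2l1, Nuf2, Nusap1 and Pttg1, which says only that these letters are not in them.

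To show the arrangement, 5 promoters are printed, each from 100 bases before to 50 after the start site, on the strand of the gene, with CHR and CCAAT matches on either strand in capitals. Ccnb2 and Cdc20 show the common arrangement, Kif23 and Anln belong to the members with an unusual distribution described later, and Ube2s has neither motif in this stretch.
Ccnb2 (chr9:70421505-70421654, minus strand): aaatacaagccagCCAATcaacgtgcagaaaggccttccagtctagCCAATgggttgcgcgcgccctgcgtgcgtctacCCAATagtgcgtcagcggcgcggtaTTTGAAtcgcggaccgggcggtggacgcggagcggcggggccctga
Cdc20 (chr4:118437294-118437443, minus strand): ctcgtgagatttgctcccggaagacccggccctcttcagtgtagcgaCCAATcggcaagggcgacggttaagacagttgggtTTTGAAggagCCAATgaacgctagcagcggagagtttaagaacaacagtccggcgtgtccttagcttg
Kif23 (chr9:61946750-61946899, minus strand): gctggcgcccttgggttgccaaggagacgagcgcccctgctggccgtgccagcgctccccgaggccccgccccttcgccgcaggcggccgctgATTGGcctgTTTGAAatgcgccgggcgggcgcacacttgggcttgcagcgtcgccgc
Anln (chr9:22389157-22389306, minus strand): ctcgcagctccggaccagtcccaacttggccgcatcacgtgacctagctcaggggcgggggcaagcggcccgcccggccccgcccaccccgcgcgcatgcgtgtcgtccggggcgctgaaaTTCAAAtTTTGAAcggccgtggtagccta
Ube2s (chr7:4812291-4812440, minus strand): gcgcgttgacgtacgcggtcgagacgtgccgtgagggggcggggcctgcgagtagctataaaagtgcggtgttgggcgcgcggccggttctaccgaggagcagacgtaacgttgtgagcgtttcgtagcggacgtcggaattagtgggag

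In macrophages the members were nearly level between the libraries. The summed level was 1993 CPM in CEP and 2084 CPM in Vehicle, a log2 ratio of -0.06 (-0.08 to -0.05). None of the 51 members was 1.5-fold higher or 1.5-fold lower in CEP, against 6.44% and 1.29% of all 12764 genes with at least 50 UMIs in the gate. The ratios ran from -0.33 to 0.30 with a median of -0.08, against 0.02 for all genes, and 41 of 51 were below 0.

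By role, the lowest ratio belonged to the 3 genes of Aurora A and PLK1, the kinases of spindle poles and mitotic entry, which summed to 69.4 CPM in CEP and 77.7 CPM in Vehicle (log2 -0.16, -0.23 to -0.10). The 9 spindle and microtubule genes followed with 261 CPM in CEP and 285 CPM in Vehicle (log2 -0.12), and the 6 chromosome structure genes with 314 and 338 CPM (log2 -0.11). The intervals of these 3 groups overlapped. The 7 cytokinesis genes summed to 123 and 121 CPM (log2 0.02, -0.02 to 0.07). Mki67 was at 94.7 CPM in CEP and 111 CPM in Vehicle, a log2 ratio of -0.23 (-0.28 to -0.17). Ndc80, which links kinetochores to microtubules, had the lowest ratio, with 10.3 CPM in CEP and 12.9 CPM in Vehicle (log2 -0.33, -0.49 to -0.17). Kif11, the motor that pushes spindle poles apart, was at 16.7 and 19.9 CPM (log2 -0.25), and Tpx2, which activates Aurora A, at 37.1 and 43.5 CPM (log2 -0.23).

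The CDK1 group was mixed in macrophages. Cdk1 was at 49.1 CPM in CEP and 46.4 CPM in Vehicle, while its partner Ccnb1 was at 18.7 and 21.3 CPM (log2 -0.18, -0.31 to -0.06) and Ccnb2 at 35.4 and 40.0 CPM (log2 -0.17). Among the APC/C genes, its activator Cdc20 was at 23.1 and 24.7 CPM and Ube2c at 117 and 126 CPM. Birc5 was at 97.8 and 104 CPM, Cenpf at 36.9 and 39.1 CPM and Stmn1 at 151 and 162 CPM. Top2a, Cenpa, the histone of the centromere, and Prc1, which bundles the central spindle, differed by at most 0.03 on the log2 scale.

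The highest ratio belonged to Anln (anillin, which organises the cleavage furrow), at 19.3 CPM in CEP and 15.7 CPM in Vehicle, a log2 ratio of 0.30 (0.17 to 0.43). Cells of the gate with at least 10 Krt8 and Krt18 UMIs numbered 124 in CEP and 17 in Vehicle, and among member-rich macrophages 67 of 1046 and 7 of 1146 were of this kind. Without them the Anln ratio was -0.13 (-0.27 to 0.02), the summed members were at 1915 and 2077 CPM (log2 -0.12), and 7 of 51 members were above 0. These cells held 10.1% of the gate's member UMIs in CEP and 1.15% in Vehicle as member-rich cells. Among member-rich macrophages, 18.4% in CEP and 16.5% in Vehicle were in the top 8% of Scrublet doublet scores. The part of doublets in the difference was not tested.

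**Figure D2:**
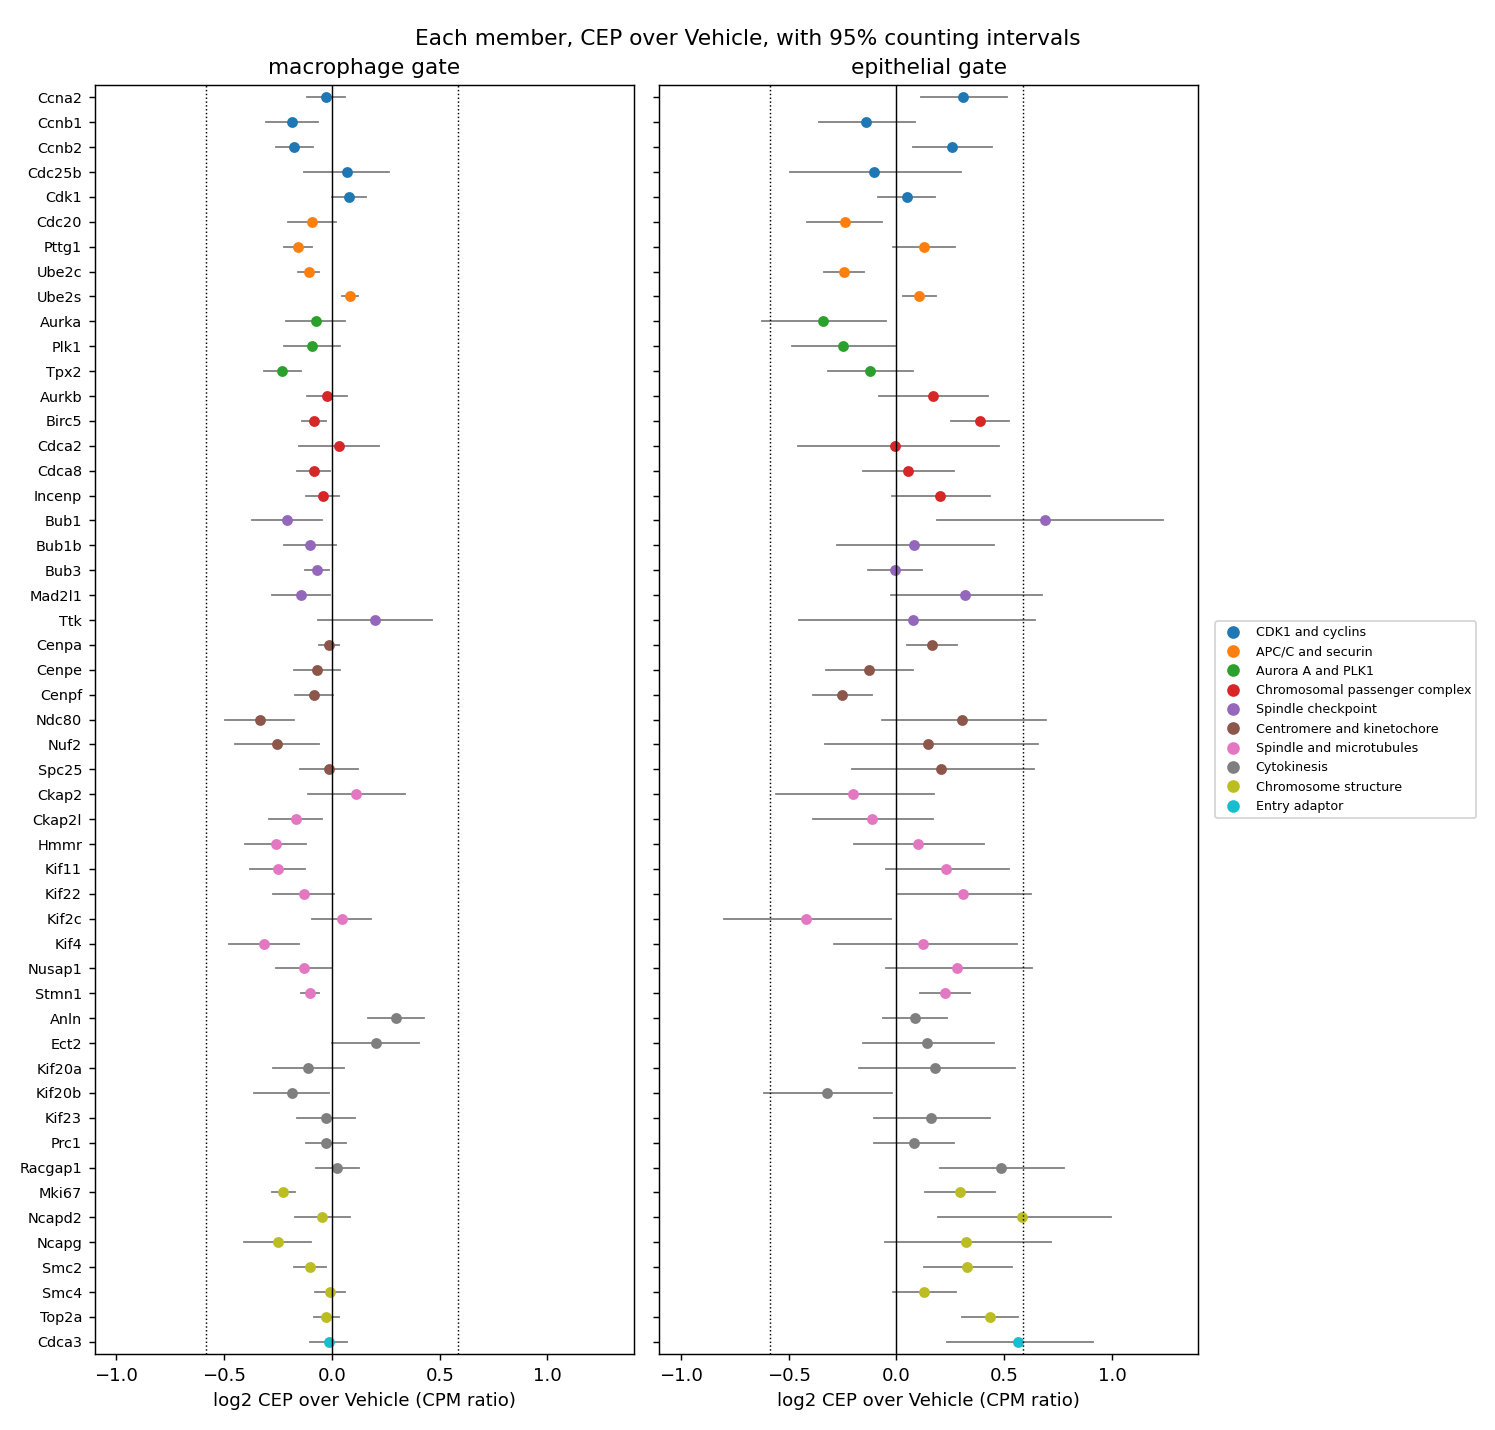
Log2 ratio of CEP over Vehicle for each of the 51 genes in the macrophage (left) and epithelial (right) gates, coloured by role, with 95% counting intervals. Dotted lines mark a 1.5-fold difference. All macrophage points lie between the dotted lines, from -0.33 (Ndc80) to 0.30 (Anln), and Bub1 is past the upper line in the epithelial gate.

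Within macrophages the summed level also differed between cells split on raw UMIs of other genes. Cells with fewer than 20 UMIs of the MHC class II genes H2-Ab1 and H2-Eb1 together had 2334 CPM of members in CEP and 2445 CPM in Vehicle, against 1848 and 2000 CPM in cells with more. Cells with fewer than 3 UMIs of Arg1, the arginase of suppressive macrophages, had 2198 and 2297 CPM, and the others 1861 and 1924 CPM. Their median depth was 8856.5 and 10376.5 UMIs against 10817 and 12004. Member-rich shares were 22.6% and 23.7% against 22.0% and 20.9%, and the thinned shares 19.4% and 19.2% against 14.8% and 15.2%. The part of depth in both splits was not tested. In summed level the CEP library was below the Vehicle library on each side of both splits. Cells with Gpnmb went the other way, with 1811 CPM in 223 CEP cells and 1316 CPM in 62 Vehicle cells, and 18.8% and 17.7% of them were member-rich, with overlapping intervals.

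In the epithelial gate the summed level was 3763 CPM in CEP and 3517 CPM in Vehicle, a log2 ratio of 0.10 (0.07 to 0.12). The Vehicle value rests on few cells: the 5 cells with most member UMIs held 38.8% of the gate's member UMIs there and 6.14% in CEP. Without the 5 such cells of each library the ratio was 0.62 (0.59 to 0.65). Those cells were chosen by the members' own UMIs, and 5 cells are a larger part of 133 Vehicle than of 834 CEP cells. Their removal therefore lowers the Vehicle level more, and this value only describes the dependence on few cells. With cells thinned to 1000 UMIs the ratio was 0.50 (0.33 to 0.68). Of 51 members, 1 (Bub1) was 1.5-fold higher in CEP and none was 1.5-fold lower, against 2.87% and 3.87% of all 10869 genes.

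Bub1, the checkpoint kinase, was at 14.8 CPM in CEP and 9.18 CPM in Vehicle, a log2 ratio of 0.69 (0.19 to 1.24) from 344 and 35 UMIs. Genes of chromosome structure were higher in CEP as a group, with 551 CPM against 443 CPM. Top2a was at 190 and 141 CPM (log2 0.43, 0.30 to 0.56), and the condensin subunit Ncapd2 at 23.1 and 15.5 CPM (log2 0.58). Birc5 was at 174 and 133 CPM (log2 0.39, 0.25 to 0.52), Mki67 at 116 and 94.4 CPM (log2 0.29) and Stmn1 at 208 and 178 CPM (log2 0.22).

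Other genes stood on the other side in epithelial cells. The kinases Aurka and Plk1 with Tpx2 summed to 125 CPM in CEP and 144 CPM in Vehicle. Cenpf was at 117 CPM in CEP and 139 CPM in Vehicle (log2 -0.25, -0.39 to -0.12), Ube2c at 247 and 293 CPM (log2 -0.25) and Cdc20 at 72.3 and 85.5 CPM (log2 -0.24). Ccnb1 was at 47.3 and 52.2 CPM (log2 -0.14), and Cdk1 at 146 and 142 CPM (log2 0.05). For the 3 genes Cenpf, Ube2c and Cdc20, detection went the opposite way. Cenpf was detected in 29.4% of CEP and 18.8% of Vehicle epithelial cells, Ube2c in 33.8% and 28.6%, and Cdc20 in 29.02% and 25.6%. The Vehicle shares rest on 133 cells, so the smaller differences of Ube2c and Cdc20 may lie within counting error. In these values a smaller share of the Vehicle cells held these RNAs, at a higher level in the sum.

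Epithelial cells with at least 3 UMIs of Slc2a1, Ndrg1 and Car9 together, genes known to answer to low oxygen, had 3600 CPM of members in 634 CEP cells and 2786 CPM in 107 Vehicle cells. The remaining epithelial cells had 4417 CPM in 200 CEP cells and 7419 CPM in 26 Vehicle cells. The order of the libraries was therefore opposite on the 2 sides of this split, with 26 cells behind the highest value.

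In the whole libraries 5 members were 1.5-fold higher in CEP and none was 1.5-fold lower, against 16.7% and 4.33% of all 14170 genes. These were Anln, at 42.8 CPM in CEP and 18.1 CPM in Vehicle, Ect2, at 12.9 and 7.11 CPM, Ckap2, at 8.74 and 5.62 CPM, Cdk1, at 70.6 and 45.9 CPM, and Ttk, at 5.55 and 3.66 CPM. Within the macrophage and epithelial gates none of the 5 passed that limit. The CEP library held 834 epithelial cells and the Vehicle library 133, and in those cells Anln was at 117 and 110 CPM against 19.3 and 15.7 CPM in the macrophage gate. Composition and level cannot be told apart in the sums over whole libraries.

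Member-rich epithelial cells and member-rich macrophages differed in the levels of single members. Among member-rich cells, 25 members had an interval above 0 for epithelial over macrophage in both libraries and 7 had an interval below 0 in both. The same share over all genes is not given here. The summed members were also higher in the epithelial member-rich cells, at 6625 against 4964 CPM in CEP and 7015 against 5479 CPM in Vehicle. The 2 counts are therefore not read as a difference in proportions. Anln, on chromosome 9 (22332012 to 22389188 in mm10), stood furthest apart, at 215 CPM in epithelial and 54.2 CPM in macrophage cells of the CEP library and 229 and 46.3 CPM in the Vehicle library. Its log2 ratios were 1.99 (1.88 to 2.10) and 2.30 (2.13 to 2.47). Ect2, the exchange factor that switches on RhoA at the cleavage furrow, followed with log2 ratios of 1.38 and 1.61 from 55.3 against 21.3 CPM and 58.1 against 18.99 CPM.

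The cytokinesis genes did not all follow. Prc1, Kif23 and Kif20b were higher in epithelial cells with intervals above 0 in both libraries, and Kif20a in CEP only. Racgap1, which recruits Ect2 to the central spindle, was at 75.9 against 79.6 CPM in CEP and 61.6 against 82.2 CPM in Vehicle. Its log2 ratios were -0.07 (-0.19 to 0.05) and -0.42 (-0.71 to -0.13). In member-rich epithelial cells without C1q RNA it was at 76.2 and 60.4 CPM. Member-rich macrophages without keratin RNA had 85.5 and 82.1 CPM. Cdk1 was higher in epithelial cells, at 259 against 131 CPM in CEP and 277 against 131 CPM in Vehicle (log2 0.98 and 1.08). Cdc20 had log2 ratios of 1.05 and 1.32, and Cenpf 1.03 and 1.34.

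The members lower in member-rich epithelial cells in both libraries were Cdca3, Bub1b, Spc25, Cdca8, Mki67, Ncapd2 and Stmn1. Cdca3, an adaptor that targets the inhibitor of mitotic entry WEE1 for destruction, was at 59.7 CPM in epithelial and 109 CPM in macrophage cells of CEP, and at 46.2 and 116 CPM in Vehicle (log2 -0.88 and -1.33). Mki67 was at 218 against 255 CPM and 203 against 313 CPM (log2 -0.22 and -0.62). Stmn1, which destabilises microtubules, had log2 ratios of -0.11 and -0.43.

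Since the summed members were also higher in the epithelial gate, the share of each gene in the member UMIs was compared as well. Anln was 3.24% of member UMIs in epithelial and 1.09% in macrophage member-rich cells of CEP, and 3.26% and 0.845% in Vehicle. Leaving out epithelial cells with any C1q RNA and macrophages with any keratin RNA left 258 and 30 epithelial and 873 and 1039 macrophage cells, and the Anln ratios were then 2.35 and 2.47. Member-rich cells were chosen by detection of these genes and were deeper in the epithelial gate (median 33781 and 39483 UMIs) than in the macrophage gate (15464 and 16837), so that the limit admits epithelial cells with lower CPM. The Anln gene also contains a sense intronic transcript, Gm48646, which is counted as a gene of its own.

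**Figure D3:**
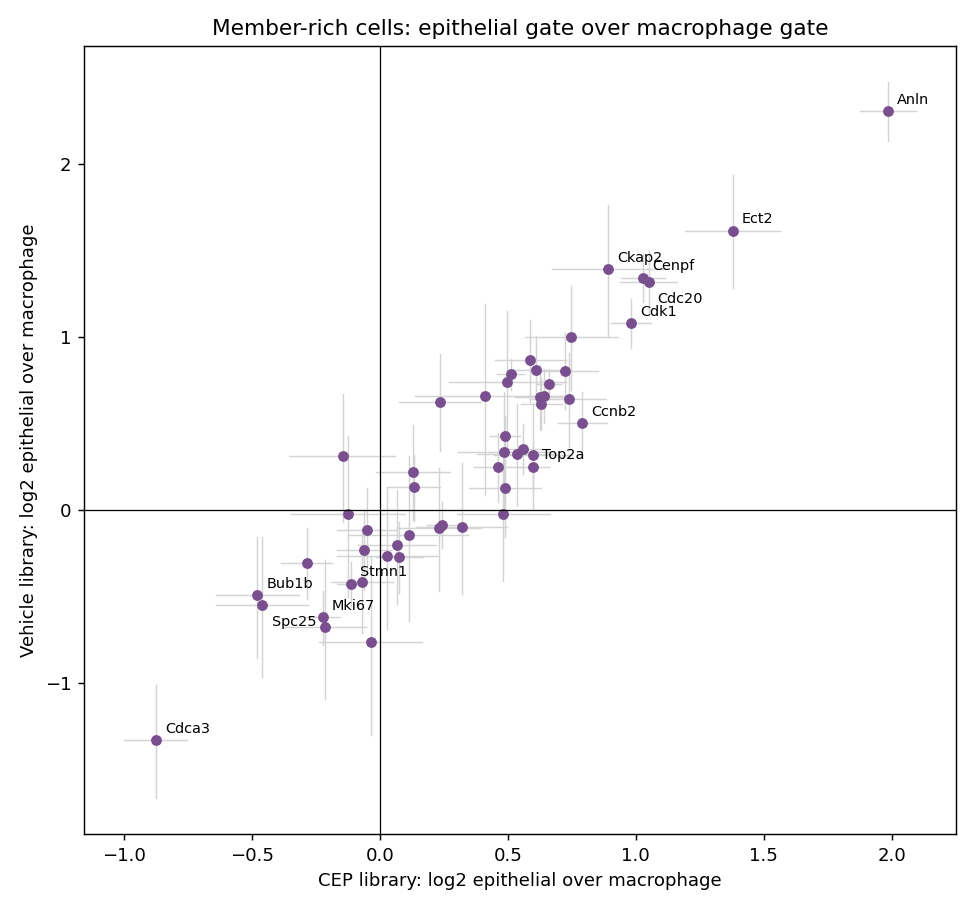
Log2 ratio of epithelial over macrophage level in member-rich cells for each of the 51 genes, in the CEP library (horizontal) and the Vehicle library (vertical), with 95% counting intervals. Anln (1.99 and 2.30) lies furthest to the upper right and Cdca3 (-0.88 and -1.33) furthest to the lower left.

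Outside the member-rich cells, macrophages and epithelial cells also differed in single members. Kif2c, a kinesin that takes microtubules apart at centromeres (chromosome 4, 117159639 to 117182639), was at 9.61 CPM (333 UMIs) in CEP macrophages with fewer than 10 of the other members, and at 7.47 CPM (313 UMIs) in such Vehicle macrophages. In epithelial cells with fewer than 10 of the others it had 1 UMI in CEP (0.0912 CPM) and 0 in Vehicle. The CEP log2 ratio was 6.72 (4.23 to 12.03), and in Vehicle the macrophage level was at least 5.13-fold higher than the limit of 3 counts in the epithelial cells (1.46 CPM). In member-rich cells the same gene was at 28.6 CPM in macrophage and 25.9 CPM in epithelial member-rich cells of CEP and 32.2 and 39.9 CPM in Vehicle, with both intervals of the ratio spanning 0.

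Cenpa behaved in a similar way to a smaller extent. Its level outside member-rich cells was 58.3 and 55.6 CPM in macrophages and 8.94 and 6.31 CPM in epithelial cells, with log2 ratios of 2.71 (2.42 to 3.01) and 3.14 (2.36 to 4.05). It was detected in 33.8% and 35.6% of these macrophages, and in 15.9% and 13.3% of these epithelial cells although the latter were deeper. Mki67 was at 15.5 and 15.7 CPM in these macrophages and 1.80 and 1.46 CPM in these epithelial cells.

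Other members stood on the opposite side outside the member-rich cells. Over all 51, 12 had macrophage intervals above epithelial in both libraries and 7 had them below in both (Cdk1, Cdc25b, Ube2s, Bub3, Stmn1, Anln and Smc4). The same share over all genes is not given here, so these counts are a description. Cells that were not member-rich had a median of 9043.5 and 10203 UMIs in macrophages, and 22423 and 24293.5 in epithelial cells. The limit on detected members can therefore leave macrophages with higher member CPM among the rest. Anln was at 1.88 CPM in macrophages and 8.92 CPM in epithelial cells of CEP and at 1.41 and 13.2 CPM in Vehicle, with log2 ratios of macrophage over epithelial of -2.25 (-2.72 to -1.78) and -3.23 (-3.90 to -2.52). Cdk1 was at 8.88 against 22.5 CPM in CEP and 6.79 against 26.3 CPM in Vehicle (log2 -1.34 and -1.95). Anln and Cdk1 were thus higher in epithelial cells among member-rich cells and among the rest alike.

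The neutrophil gate had the largest summed ratio between the libraries, at 1067 CPM in CEP and 685 CPM in Vehicle (log2 0.64, 0.58 to 0.70). Of the 37 members with at least 50 UMIs, 26 were 1.5-fold higher in CEP and none was lower, against 22.0% and 2.03% of all 8367 genes. The other 14 members were too low to be counted, and a member can pass through the higher library alone, so these counts are a description. Cdk1 was at 30.6 CPM in CEP and 7.68 CPM in Vehicle, Ccna2 at 18.7 and 10.1 CPM, Ccnb1 at 11.6 and 5.64 CPM, and Ccnb2 at 17.0 and 10.2 CPM. Among the APC/C genes, Cdc20 was at 17.0 and 8.71 CPM, Ube2c at 65.7 and 34.2 CPM and Pttg1 at 48.3 and 31.4 CPM. All 3 members of the Aurora A group passed, with Aurka at 8.93 and 5.12 CPM, Plk1 at 10.96 and 4.27 CPM and Tpx2 at 15.01 and 7.68 CPM.

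The 26 covered every role but the entry adaptor Cdca3. In the passenger complex Birc5 was at 30.4 CPM in CEP and 17.4 CPM in Vehicle and Incenp at 14.4 and 8.71 CPM, and in the checkpoint Mad2l1 was at 8.32 and 4.95 CPM. Of the centromere genes, Cenpa was at 55.8 and 35.3 CPM, Cenpe at 13.6 and 5.46 CPM, Cenpf at 20.9 and 9.56 CPM and Spc25 at 6.29 and 3.76 CPM. Spindle genes made up 6 of the 26. Kif11 was at 7.71 and 4.95 CPM, Kif22 at 8.93 and 3.42 CPM, Nusap1 at 8.32 and 4.44 CPM, Hmmr at 7.101 and 3.42 CPM, Ckap2l at 10.3 and 4.44 CPM and Stmn1 at 37.7 and 19.3 CPM. Anln was at 13.0 and 2.39 CPM, Prc1 at 18.3 and 7.86 CPM and Top2a at 39.6 and 17.9 CPM. Mki67 was nearly level, at 26.0 and 24.8 CPM, and the intervals of the ratio spanned 0 for Spc25 and Kif11.

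Keratin-bearing cells moved with this difference. Member-rich cells numbered 26 in CEP and 15 in Vehicle, of which 16 and 1 had at least 10 Krt8 and Krt18 UMIs and also fell in the epithelial gate, and those 16 cells held 45.8% of the gate's member UMIs in CEP against 6.06% for the 1 cell in Vehicle. The 5 epithelial markers summed to 325 CPM in the CEP and 44.9 CPM in the Vehicle neutrophil gate. Leaving out all cells with that much keratin RNA, 28 in CEP and 5 in Vehicle, gave 654 CPM in CEP and 650 CPM in Vehicle, a log2 ratio of 0.01 (-0.06 to 0.08). Of 29 members then measured, 1 was 1.5-fold higher (Cdk1, at 11.98 and 7.13 CPM) and 2 were 1.5-fold lower (Cdca8, at 6.23 and 10.6 CPM, and Aurkb, at 3.59 and 6.08 CPM), against 5.98% and 2.19% of all 7595 genes.

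Fibroblast markers moved with the difference too. The collagens Col1a1 and Col3a1 and the proteoglycan Dcn summed to 1054 CPM in the CEP and 8.54 CPM in the Vehicle neutrophil gate, and to 4165 CPM in the member-rich cells of CEP against 0 for all 3 in those of Vehicle. At least 10 UMIs of the 3 genes together stood in 7 CEP cells and 1 Vehicle cell, none of which had 10 keratin UMIs, and the 7 cells held 12.9% of the gate's member UMIs in CEP. Without these cells alone the members summed to 958 and 685 CPM (log2 0.48, 0.42 to 0.54).

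Without both the keratin-bearing and the fibroblast-marker cells, the order of the libraries was the opposite. Members then summed to 509 CPM in 1652 CEP cells and 650 CPM in 2137 Vehicle cells. The log2 ratio was -0.35 (-0.43 to -0.28), with 7 and 14 member-rich cells. These values rest on few cells. In the whole gate the 5 cells with most member UMIs held 40.9% of them in CEP and 35.99% in Vehicle. The top Vehicle cell held 405 of 4009 member UMIs and no keratin UMI, so it was not left out. Whether this order holds without such cells was not tested. Of 23 members measured, none was 1.5-fold higher and 12 were 1.5-fold lower in CEP, against 2.70% and 2.89% of all 7381 genes, and 22 ratios were below 0. Here too a member can pass the UMI minimum through the higher library alone, as Cenpf did with 9 CEP and 50 Vehicle UMIs. These counts are therefore a description. Mki67 was at 12.2 CPM in CEP and 23.8 CPM in Vehicle (log2 -0.97, -1.47 to -0.49), and Ube2c at 12.9 and 33.9 CPM (log2 -1.39, -1.86 to -0.95). Markers of early neutrophils summed to 3587 CPM in the CEP and 7312 CPM in the Vehicle gate, and their part in this order was not tested.

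**Figure D4:**
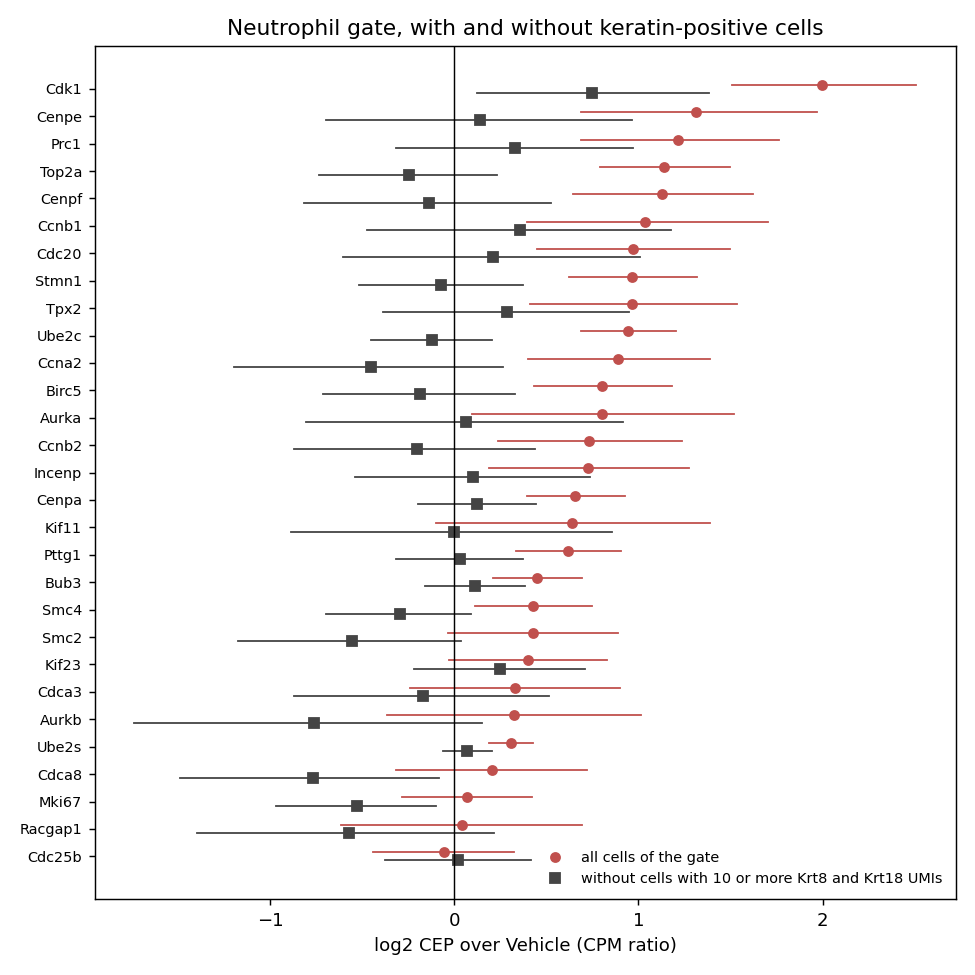
Log2 ratio of CEP over Vehicle in the neutrophil gate for 29 genes, with all cells (circles) and without cells that had at least 10 Krt8 and Krt18 UMIs (squares), with 95% counting intervals. Without these cells Cdk1 moves from 2.0 to 0.75 and Top2a from 1.14 to -0.24.

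Among neutrophils with at least 3 UMIs of the granule genes Ngp, Camp and Ltf together, which mark immature cells, 3 of 94 CEP and 8 of 140 Vehicle cells were member-rich. Members summed to 943 CPM (867 to 1024) and 996 CPM (937 to 1058) there, with overlapping intervals. In the Vehicle library these 140 cells held 8 of the 15 member-rich neutrophils.

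Kif23 and Cdc25b were higher in neutrophils than in macrophages outside the member-rich cells. In cells with fewer than 10 of the other members, Kif23 was at 16.0 CPM (12.4 to 20.2, 68 UMIs) in CEP neutrophils and 12.9 CPM (10.1 to 16.2, 72 UMIs) in Vehicle neutrophils. In macrophages of the same kind it was at 2.37 and 1.36 CPM, so the neutrophil level was 6.73-fold and 9.48-fold higher. Kif23, on chromosome 9 (61915905 to 61946774), encodes the kinesin that with Racgap1 builds the central spindle. Cdc25b, the phosphatase that starts CDK1 activation (chromosome 2, 131186949 to 131198497), was at 18.6 and 20.8 CPM in these neutrophils against 2.61 and 1.94 CPM in macrophages, 7.15-fold and 10.7-fold higher. The T cell gate stood between, with Kif23 at 9.88 and 8.01 CPM and Cdc25b at 9.23 and 16.02 CPM from 6 to 14 UMIs each. The log2 ratios of neutrophil over T cell gate were 0.69 and 0.69 for Kif23 and 1.01 and 0.38 for Cdc25b. Their intervals spanned 0 for both genes in both libraries, so no difference from the T cell gate was detectable at this depth. That gate also held neutrophil RNA, with neutrophil markers at 26067 and 40406 CPM, and its part in these T cell gate values was not tested. In epithelial cells Kif23 was at 4.86 and 2.91 CPM and Cdc25b at 4.57 and 4.78 CPM.

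Other members were lower in these neutrophils. Mki67 was at 3.28 and 4.29 CPM in these neutrophils against 15.5 and 15.7 CPM in macrophages, Stmn1 at 13.1 and 5.55 CPM against 41.7 and 44.2 CPM, and Cdk1 at 3.46 and 2.51 CPM against 8.88 and 6.79 CPM. Over all 51, 4 members had neutrophil intervals above macrophage in both libraries (Kif23, Cdc25b, Pttg1 and Ube2s) and 19 had them below in both. The same share over all genes is not given here, so these counts are a description. At most 3 neutrophil UMIs stood behind 18 members in CEP and 14 in Vehicle, which limits what could be separated. Pttg1 (securin) was 1.47-fold and 1.56-fold higher, and Ube2s 1.15-fold and 1.16-fold. In neutrophils with none of the other 50 members detected, Kif23 was still at 25.9 and 17.0 CPM and Cdc25b at 19.8 and 23.1 CPM.

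Between the libraries, the intervals of Kif23 and Cdc25b spanned 0. In the whole neutrophil gate Kif23 had a CEP over Vehicle log2 ratio of 0.40 (-0.03 to 0.83), and without keratin-bearing cells 0.25 (-0.22 to 0.71). Cdc25b had -0.06 (-0.44 to 0.32) and 0.02 (-0.38 to 0.42). The labels do not say if reads in introns were counted. Cdc25b overlaps Spef1 on the opposite strand by 334 bases.

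**Figure D5:**
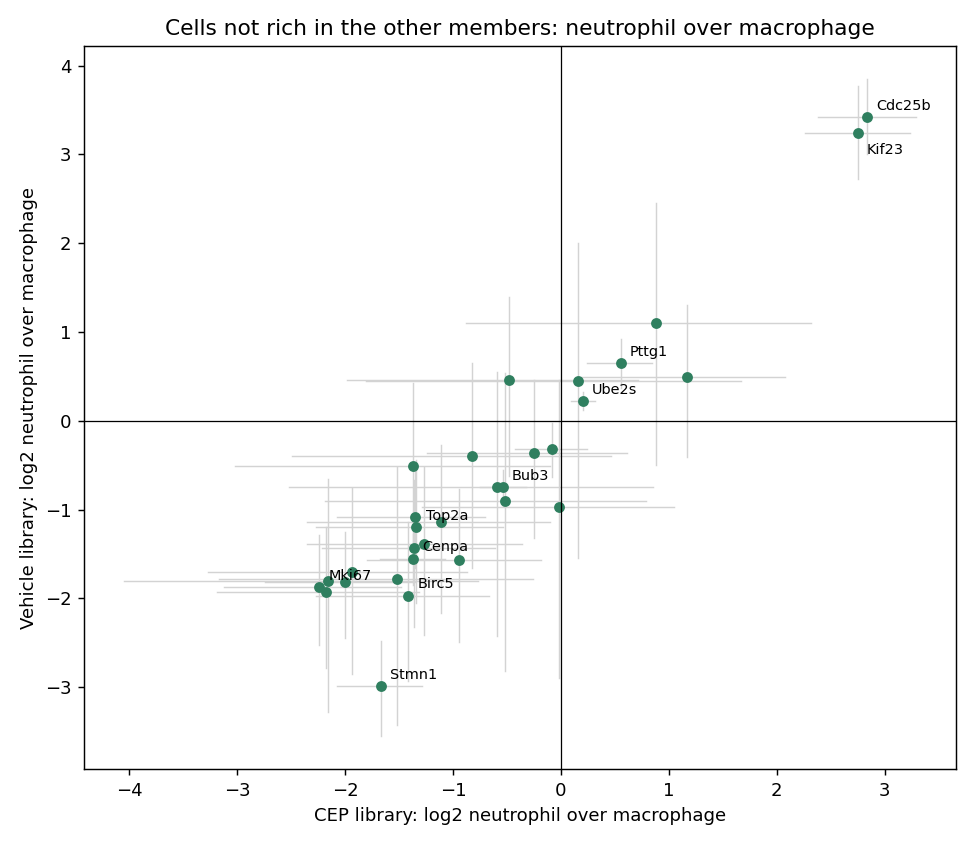
Log2 ratio of neutrophil over macrophage level in cells with fewer than 10 of the other members, for the 31 genes with more than 3 UMIs in each gate and library, in the CEP library (horizontal) and the Vehicle library (vertical), with 95% counting intervals. Kif23 (2.75 and 3.24) and Cdc25b (2.84 and 3.42) lie apart at the upper right.

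T cells had 2880 CPM of members in CEP and 1887 CPM in Vehicle, a log2 ratio of 0.61 (0.53 to 0.69). Of 23 members with at least 50 UMIs, 16 were 1.5-fold higher in CEP and none was lower, against 6.84% and 6.80% of all 5071 genes, and all 23 ratios were above 0. As with the neutrophils, the other 28 were too low to be counted, and a member can pass through the higher library alone. Most member UMIs also lay in the same few member-rich cells, so the 23 ratios are not independent. These counts are therefore a description. Ube2c was at 186 CPM in CEP and 87.8 CPM in Vehicle (log2 1.08, 0.71 to 1.46), Cdk1 at 69.2 and 29.3 CPM (log2 1.24, 0.61 to 1.90), and Cdca8, the passenger complex subunit borealin, at 62.7 and 27.4 CPM (log2 1.19). The cyclins Ccna2 and Ccnb2 were at 53.0 and 27.4 CPM and at 69.2 and 33.9 CPM. Of the other members past that limit, Cdc20 was at 34.6 and 22.9 CPM, Tpx2 at 54.1 and 30.2 CPM, Birc5 at 111 and 69.5 CPM, Incenp at 50.8 and 31.1 CPM and Bub3 at 119 and 76.9 CPM. Cenpa was at 185 and 113 CPM, Cenpf at 49.8 and 28.4 CPM, Prc1 at 59.5 and 38.4 CPM, Racgap1 at 46.5 and 29.3 CPM, Top2a at 138 and 90.6 CPM and Cdca3 at 48.7 and 27.4 CPM. The intervals of the Cdc20 and Racgap1 ratios spanned 0. Stmn1 was at 168 and 124 CPM, Ccnb1 had too few UMIs to be counted (20.6 and 12.8 CPM), and Mki67 was at 151 and 144 CPM (log2 0.08, -0.26 to 0.41).

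These T cell values rest on 19 member-rich cells in CEP and 21 in Vehicle, 11.05% (6.78% to 16.7%) and 7.75% (4.86% to 11.6%) of the gate, and these intervals overlap. The 5 cells with most member UMIs held 42.4% and 34.7% of the gate's member UMIs. Averaged so that each cell counts alike, the levels were 1772 and 1362 CPM. T cells with Cd8a or Cd8b1 had 4415 CPM in 43 CEP cells and 2760 CPM in 65 Vehicle cells, with 11 and 12 member-rich cells. T cells with Foxp3, the regulator of regulatory T cells, went the other way, with 1083 CPM in 29 CEP cells and 2851 CPM in 45 Vehicle cells, from 2 and 4 member-rich cells. Neutrophil markers summed to 26067 and 40406 CPM in the T cell gate, so it also held RNA of that class; their part in the difference was not tested.

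In the dendritic gate the levels were 2110 CPM in CEP and 1845 CPM in Vehicle, a log2 ratio of 0.19 (0.10 to 0.28), from 16 and 11 member-rich cells. Of 23 members with at least 50 UMIs, 4 were 1.5-fold higher in CEP (Ccnb2, Racgap1, Mki67 and Top2a) and 2 were 1.5-fold lower (Cdca8 and Cenpe), against 4.69% and 4.52% of all 4757 genes. A member can pass the UMI minimum through the higher library alone here as well, so these counts are a description. Mki67 was at 113 and 58.5 CPM, Top2a at 77.9 and 39.6 CPM, Ccnb2 at 74.7 and 41.5 CPM and Racgap1 at 38.4 and 24.5 CPM. Cenpe, the kinetochore motor that lines up chromosomes, was at 16.0 and 36.8 CPM and Cdca8 at 34.2 and 55.7 CPM. Between these limits lay Cdk1 (48.0 and 35.9 CPM), Cdc20 (28.8 and 28.3 CPM), Birc5 (114 and 89.6 CPM), Ube2c (115 and 136 CPM), Cenpf (50.2 and 53.8 CPM) and Stmn1 (152 and 109 CPM), and Ccnb1 had 49 UMIs in all (23.5 and 25.5 CPM). A single Vehicle cell with 283 keratin UMIs held 24.0% of the gate's member UMIs. Without cells with at least 10 keratin UMIs the ratio was 0.39, Cdca8 was at 31.9 and 47.5 CPM, and Cenpe was under 50 UMIs. With the gate thresholds doubled the ratio was -0.25. Cells with Xcr1 or Clec9a, markers of cross-presenting dendritic cells, had 2533 and 2096 CPM. Cells with Cd209a had 402 and 502 CPM with 0 member-rich cells of 7 and of 12, which allows shares of up to 41.0% and 26.5% by the exact binomial interval.

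Cells in no gate had 1069 CPM of members in CEP and 1266 CPM in Vehicle. Of 50 members with at least 50 UMIs there, 1 (Ckap2) was 1.5-fold higher in CEP and 9 were 1.5-fold lower, against 7.22% and 2.53% of all 10541 genes. Mki67 was at 29.2 CPM in CEP and 57.9 CPM in Vehicle, and Cenpf at 13.8 and 22.9 CPM. Markers of several cell types also differed between the libraries there. The 3 fibroblast markers summed to 2122 CPM in CEP and 952 CPM in Vehicle (7070 and 837 CPM in member-rich cells), the endothelial markers to 95.2 and 60.3 CPM, the epithelial markers to 41.9 and 22.6 CPM and the dendritic markers to 146 and 112 CPM. Lower in CEP were the B cell markers, at 10.1 and 24.7 CPM, the NK markers, at 28.5 and 48.7 CPM, the T cell markers, at 152 and 178 CPM, the macrophage markers, at 2718 and 2959 CPM, and the neutrophil markers, at 11153 and 12641 CPM. Without the 34 CEP and 13 Vehicle cells with at least 10 fibroblast-marker UMIs, members were at 1008 and 1256 CPM (log2 -0.32, -0.36 to -0.27). The part of the other markers in this difference was not tested.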

How the data were processed

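Per the labels, tumours were dissociated, CD45-positive cells enriched with magnetic beads, and cells loaded for droplet 3' sequencing (version 3 chemistry). The build was mm10; Cell Ranger is given as 5.0.1 per the submitters' processing notes and as 7.1.0 per the file headers. The authors deposited raw counts (UMIs per gene and cell barcode), and at most 15% mitochondrial UMIs and at least 200 genes were required here of a barcode.

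The gates, the 51 members, their roles and the other gene lists were chosen with earlier results of these data known. A macrophage-gate cell had at least 10 C1q UMIs, a T cell-gate cell at least 2 Cd3 UMIs and a neutrophil-gate cell at least 1 Csf3r or Cxcr2 UMI (both with fewer than 3 C1q UMIs), a dendritic-gate cell at least 1 Flt3 UMI and an epithelial-gate cell at least 10 Krt8 and Krt18 UMIs (both with fewer than 10 C1q UMIs). A cell could be in more than 1 gate, as 53 CEP and 41 Vehicle cells were. Any member may be named; 9 common ones and those past 1.5-fold with at least 50 UMIs in a gate carry values, and other members with values were chosen after their values were seen. Counts were summed per gate and library (CPM); ratios carry exact conditional binomial intervals, levels exact Poisson and shares Clopper-Pearson intervals, all at 95%. For counts past 1.5-fold, 0.5 UMI was added to each sum. With 1 library per group there was no test. UMI counts set the precision, which is best in macrophages (51842518 and 61626300 UMIs in CEP and Vehicle) and low in the T cell (924304 and 1092994) and dendritic (936899 and 1059873) gates. Doublets were kept in the main values and scored with Scrublet (scanpy 1.11.5) for an alternative. Scripts ran on numpy 2.4.6 and scipy 1.17.1 and were tested on simulated data. Alternatives with keratin-bearing cells, fibroblast-marker cells (at least 10 Col1a1, Col3a1 and Dcn UMIs), both, or the 5 cells with most member UMIs left out were added after seeing the data. The top 5 cells were chosen by the members' own UMIs, so values without them only describe the dependence on few cells. Gene positions are from GENCODE M21 (mm10). Of the members, 12 overlap a counted protein-coding gene, all on the opposite strand.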

Additional observations from a re-analysis of the deposited data

Results flagged for a closer look

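The members' ratio of CEP over Vehicle had opposite signs in different gates, and this difference between gates was not tested. It was -0.06 in the macrophage gate against 0.61 in the T cell, 0.64 in the neutrophil, 0.19 in the dendritic and 0.10 in the epithelial gate, each with a counting interval on its own side of 0. The neutrophil value was 0.01 without keratin-bearing cells and -0.35 without keratin-bearing and fibroblast-marker cells. The cells of no gate, which enter no comparison, also held member RNA, at 1069 CPM in CEP and 1266 CPM in Vehicle, with 77 of 2107 and 69 of 2168 cells member-rich.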

How the results depend on the processing

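No paired analysis was possible because each group is 1 library. Values are log2 ratios of CEP over Vehicle or counts of members, and the cause of a change was not tested. For the summed level, 31 alternative values stayed inside the counting interval, 29 moved outside it and 3 reversed. In the T cell gate (0.61) it was 0.52 in cells of 1 gate only, 0.75 without keratin cells, 0.72 without keratin and fibroblast cells, 0.38 as a mean per cell and 0.30 thinned to 1000 UMIs. In the dendritic gate (0.19) it was 0.39 without keratin cells, with or without fibroblast cells, 0.55 as a mean per cell, 0.48 thinned, 0.90 without the top 5 cells and reversed to -0.25 with doubled thresholds. In the epithelial gate (0.10) it was 0.13 in cells of 1 gate only, 0.066 without doublets, 0.28 as a mean per cell, 0.50 thinned and 0.62 without the top 5 cells. In the macrophage gate (-0.06) it was -0.047 without doublets, -0.12 without keratin cells, with or without fibroblast cells, -0.046 as a mean per cell, -0.043 without mitochondrial and ribosomal UMIs, -0.081 thinned and -0.084 without the highest member. In the neutrophil gate (0.64) it was 0.30 with doubled thresholds, 0.0092 without keratin cells, 0.48 without fibroblast cells, 0.14 as a mean per cell, 0.18 thinned, 0.55 without the top 5 cells, 0.75 without the highest member and reversed to -0.10 in cells of 1 gate only and -0.35 without keratin and fibroblast cells. Members 1.5-fold higher numbered 34 in T cells (16) and 15 in dendritic cells (4) with no UMI minimum, 1 in dendritic cells with doubled thresholds, 3 in epithelial cells (1) of 1 gate only and 2 without doublets, and in neutrophils (26) 0 in cells of 1 gate only, 6 with doubled thresholds 1 without keratin cells and 0 without keratin and fibroblast cells. Members 1.5-fold lower numbered 1 in dendritic cells (2) of 1 gate only and 0 without keratin cells, with or without fibroblast cells, and in neutrophils (0) 3 in cells of 1 gate only, 2 without keratin cells and 12 without keratin and fibroblast cells. The same share of all genes is given above only for neutrophils without keratin cells, with or without fibroblast cells. For the other settings it is not given here, so those counts are a description. The member-rich share was 0.75 thinned in the epithelial gate (0.37), and in the neutrophil gate (1.14) reversed to -0.23 in cells of 1 gate only, -0.12 without keratin cells and -0.63 without keratin and fibroblast cells. The T cell (172 and 271 cells) and dendritic (92 and 98) gates hold few cells, and the neutrophil cells are shallow, with a median of 1776 and 1864 UMIs.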
